A study of Homo sapiens with 8 samples.

Results

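The regions described here are the RFX7 binding peaks that were listed in HCT116 cells after Nutlin-3a and had no counterpart in the solvent control. They were chosen by measured values, the peak calls themselves, as the entries of the Nutlin-3a list that overlap no entry of the DMSO list by 1 bp or more. There were 268 of them among 622 Nutlin-3a entries, or 43.1%, and 1127 entries in both lists together. Binding was read by ChIP-seq, in which an antibody pulls down a protein with its DNA and the recovered fragments are sequenced. Cells of HCT116, a human colon cancer line with wild-type p53, received Nutlin-3a at 10 µM or DMSO over 24 h, and each treatment had 2 RFX7 ChIP and 2 input samples. Nutlin-3a releases p53 from its negative regulator MDM2. The authors' files give 1 peak list for each treatment and nothing for single samples. The read depth of each sample is therefore unknown, and replicate spread could not be measured. All values below describe peaks, which are not replicates, and intervals (95%, Wilson) cover counting error only.

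RFX7 belongs to the RFX family of transcription factors, which bind DNA through a winged-helix domain. Their classic site, the X-box, is a pair of inverted arms of the form GTTGCC and GGCAAC, and promoters regulated by RFX proteins often also carry a CCAAT box, the site of the trimeric factor NF-Y. RFX7 is known as a mediator of the p53 response that acts on genes restraining growth and PI3K-AKT-mTOR signalling. A peak list is a set of positions past a threshold, so a region missing from the DMSO list is one that did not pass there, and its DMSO signal was not analysed here.

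Promoter sequences at some of these peaks are shown first, because they show the letters behind the motif counts given further on. They are the 150 bases before an annotated start of the gene, 5′ to 3′ on the gene's strand, from RefSeq (GRCh38.p14). Capitals mark an X-box arm (GTTGCC or its reverse complement GGCAAC, together with the adjoining bases where GTTGCC is followed by ATGG, a longer X-box form) and the CCAAT core or its reverse complement ATTGG. The first pair holds the longer form, and the stretch of DCAF6 also a CCAAT core.
COQ10A, chr12:56266792-56266941, plus strand: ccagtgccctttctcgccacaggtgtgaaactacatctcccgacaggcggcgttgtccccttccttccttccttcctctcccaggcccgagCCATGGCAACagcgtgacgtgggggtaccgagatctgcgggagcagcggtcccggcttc
DCAF6, chr1:167936089-167936238, plus strand: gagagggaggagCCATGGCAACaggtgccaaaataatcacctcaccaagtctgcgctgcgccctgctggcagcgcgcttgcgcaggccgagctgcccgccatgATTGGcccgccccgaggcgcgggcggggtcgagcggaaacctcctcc
Each stretch of the next pair holds a single arm, and that of OTUD5 also holds a CCAAT core. The CDKN2D peak covers only 36 of the 150 bases shown, and its summit lies upstream of them. Within that peak, a further arm and a CCAAT core begin 249 and 234 bases before the start, outside the stretch.
CDKN2D, chr19:10568980-10569129, minus strand: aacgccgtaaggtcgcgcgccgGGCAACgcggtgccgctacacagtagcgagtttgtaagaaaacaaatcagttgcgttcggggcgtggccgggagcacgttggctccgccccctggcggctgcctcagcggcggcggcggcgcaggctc
OTUD5, chrX:48958382-48958531, minus strand: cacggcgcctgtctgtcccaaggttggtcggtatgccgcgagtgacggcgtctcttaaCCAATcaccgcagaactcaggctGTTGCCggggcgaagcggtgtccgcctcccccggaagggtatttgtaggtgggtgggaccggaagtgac
The following stretches hold CCAAT cores without an X-box arm and lie at 3 genes recalled as RFX7 targets (ABAT, ARL15 and SLC43A2), at the decapping enzyme gene DCP2, and at 2 of the promoter peaks with the highest −log10 q (SOX4 and DOLPP1).
ABAT, chr16:8674467-8674616, plus strand: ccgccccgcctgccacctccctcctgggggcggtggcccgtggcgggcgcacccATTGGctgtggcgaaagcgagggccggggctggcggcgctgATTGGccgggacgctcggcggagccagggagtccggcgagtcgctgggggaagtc
ARL15, chr5:54310574-54310723, minus strand: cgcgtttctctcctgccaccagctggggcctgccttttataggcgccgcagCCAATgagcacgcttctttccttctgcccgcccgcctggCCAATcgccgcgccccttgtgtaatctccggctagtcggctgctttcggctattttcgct
SLC43A2, chr17:1628835-1628984, minus strand: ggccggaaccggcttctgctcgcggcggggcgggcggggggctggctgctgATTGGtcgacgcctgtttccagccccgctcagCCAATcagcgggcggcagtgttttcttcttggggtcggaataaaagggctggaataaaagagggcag
DCP2, chr5:112976648-112976797, plus strand: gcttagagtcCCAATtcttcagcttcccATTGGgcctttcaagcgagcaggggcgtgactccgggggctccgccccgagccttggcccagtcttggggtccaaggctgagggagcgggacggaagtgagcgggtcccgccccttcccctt
SOX4, chr6:21593601-21593750, plus strand: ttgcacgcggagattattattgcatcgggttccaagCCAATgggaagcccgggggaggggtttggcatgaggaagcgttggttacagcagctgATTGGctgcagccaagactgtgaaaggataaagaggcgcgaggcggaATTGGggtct
DOLPP1, chr9:129080961-129081110, plus strand: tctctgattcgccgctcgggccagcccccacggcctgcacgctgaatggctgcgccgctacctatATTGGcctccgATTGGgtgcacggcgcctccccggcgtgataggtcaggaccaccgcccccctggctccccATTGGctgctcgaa
ATOSA had a peak at each of 2 annotated starts. The first stretch has a CCAAT core and the second has neither set of letters in exact form. Capitals mark exact matches only, so a stretch without a marked arm may still hold a variant of the X-box.
ATOSA, chr15:52652041-52652190, minus strand: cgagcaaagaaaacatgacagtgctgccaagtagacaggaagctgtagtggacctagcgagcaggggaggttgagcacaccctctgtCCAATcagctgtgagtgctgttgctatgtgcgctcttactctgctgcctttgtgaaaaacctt
ATOSA, chr15:52679389-52679538, minus strand: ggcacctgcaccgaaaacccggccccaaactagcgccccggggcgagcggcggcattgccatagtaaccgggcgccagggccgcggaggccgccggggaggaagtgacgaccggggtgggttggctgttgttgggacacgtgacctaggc
At REV3L the arm lies just after the start, and 26 bases around it are shown.
REV3L, chr6:111483187-111483212, minus strand: tcatcatcatGGCAACaagagctgca
OTUD5, SOX4 and DOLPP1 were chosen for display after their values were seen.

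The 268 peaks fell into 3 kinds by their neighbours. Standalone peaks, 137 of 268, had no other entry of either list within 10 kb. Grouped peaks, 122 of 268 or 45.5% (39.7 to 51.5%), had another Nutlin-3a entry within 10 kb, against 219 of 354 (61.9%) of the peaks shared with DMSO and 54.8% of the whole Nutlin-3a list. The remaining 9 had only a DMSO entry within 10 kb. For 69 of the 268 (25.7%, 20.9 to 31.3%) a DMSO entry lay within 1 kb without touching, and 63 of these 69 were grouped. Conversely, 150 of 268 had no DMSO entry within 10 kb. The DMSO list had unshared entries too: 130 of its 505 overlapped no Nutlin-3a entry (DMSO-only peaks). Of these 130, 54 (41.5%, 33.4 to 50.1%) had another DMSO entry within 10 kb. A Nutlin-3a entry lay within 1 kb of 34 (26.2%, 19.4 to 34.3%). Both shares lie near those of the Nutlin-3a-only peaks.

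**Figure D1:**
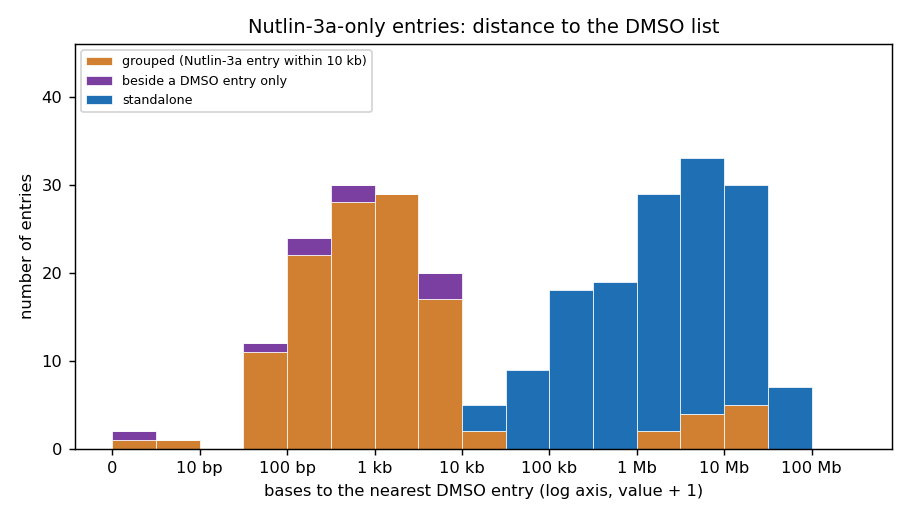
Number of Nutlin-3a-only peaks by bases to the nearest DMSO entry (log axis, value + 1), coloured by kind: grouped (122), beside a DMSO entry only (9) and standalone (137). The 118 peaks within 10 kb of a DMSO entry form the left mound and the 150 farther ones, all but 13 of them standalone, the right mound.

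The rule is a threshold of 1 bp, and the peaks next to it differed little in position. The 3 Nutlin-3a-only peaks nearest to a DMSO entry were separated from it by 1, 2 and 7 bases. They lay at chr20:31060359-31060510, chr22:18896467-18896559 and chr18:20938785-20938939, with fold enrichments of 2.15, 1.86 and 1.58. The 3 shared peaks with the smallest overlap shared 21, 45 and 45 bases with a DMSO entry, and had fold enrichments of 4.20, 2.35 and 2.81.

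Strength is given as the authors' fold enrichment over the local background and as −log10 q, and ranks peaks within the Nutlin-3a list only. Presence in one list and absence from the other chose these peaks, so their strength is a description. Fold enrichment ran from 1.29 to 14.8 with a median of 3.69, and −log10 q from 1.37 to 133 with a median of 10.3. The shared peaks had medians of 2.61 and 44.3. The DMSO-only peaks had medians of 3.21 and 5.99, on the scale of their own list. Ranked by fold enrichment within the Nutlin-3a list, 0 of the first 10, 23 of the first 100 and 88 of the first 200 were unshared. By −log10 q, 0 of the first 50 and 8 of the first 100 were unshared, and so were 75 of the 100 lowest.

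The 3 kinds differed in strength. Standalone peaks had a median fold enrichment of 4.54 and a median −log10 q of 8.65. Grouped peaks had a lower median fold enrichment, 2.52, with a higher median −log10 q, 14.1. The shared peaks that had no other Nutlin-3a entry within 10 kb, 135 in number, had medians of 6.53 and 46.4. The medians of the standalone peaks thus lay below those of their shared counterparts on both scales, while single peaks overlapped. The highest fold enrichment, 14.8, belonged to a grouped 50-bp peak at chr9:60679314-60679363. The highest −log10 q, 133, belonged to a grouped peak at chr5:49642556-49642705 whose fold enrichment was 1.57.

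**Figure D2:**
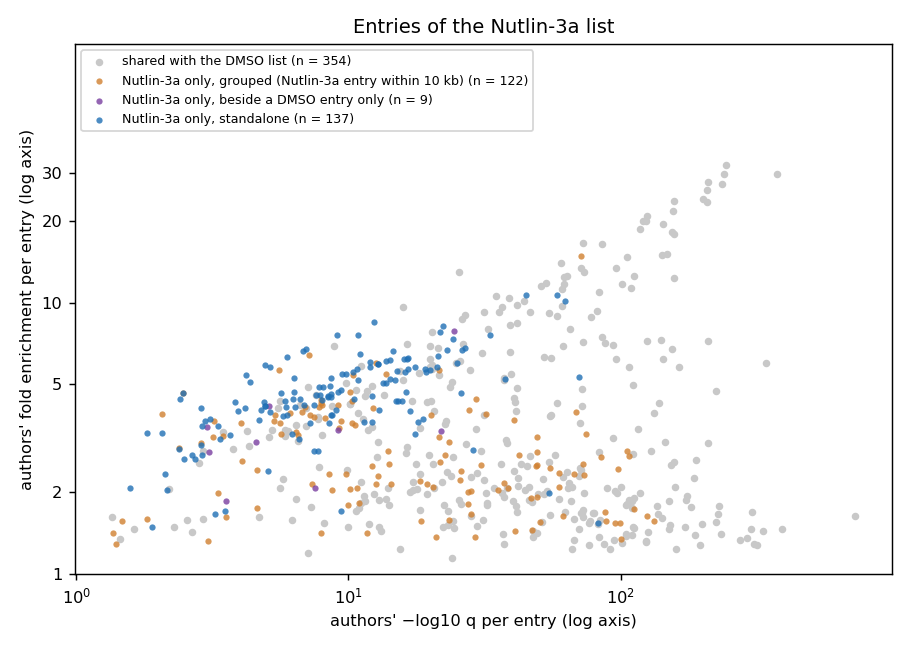
Each point is 1 entry of the Nutlin-3a list, with the authors' −log10 q on the x axis and fold enrichment on the y axis (both log axes), grey where shared with DMSO. Standalone peaks lie along the upper left edge (median fold enrichment 4.54), and grouped peaks extend to the right at low fold enrichment (median 2.52).

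The peaks were narrower than the shared ones. Their median width was 152 bp, against 246.5 bp for the shared peaks, and together they covered 44651 bp against 117331 bp. The DMSO-only peaks were narrower still, with a median of 110.5 bp, so narrowness was not particular to the Nutlin-3a list. A width of exactly 50 bp occurred 31 times and a width of exactly 150 bp 16 times. Such repeated widths occurred among the 354 shared peaks 7 and 10 times, and among the 130 DMSO-only peaks 20 and 11 times. The widest of the 268, with 497 bp, was a standalone peak inside TAMM41, a gene of mitochondrial cardiolipin synthesis, at chr3:11770261-11770757. Its fold enrichment was 7.37 and its −log10 q 24.3.

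The next question was where these peaks lay relative to genes. For 55 of 268 peaks the summit was at most 1 kb from a coding gene's nearer end (20.5%, 16.1 to 25.8%), against 66 of 354 shared peaks (18.6%) and 19.5% of the whole list. With annotated starts in place of gene ends, 60 of 262 peaks lay within 1 kb (22.9%, 18.2 to 28.4%), against 61 of 345 shared peaks (17.7%) and 19.9% of the list. These shares lie near that of the list. Among standalone peaks alone, 43 of 137 lay within 1 kb of a gene end (31.4%, 24.2 to 39.6%). Of the shared peaks with no other Nutlin-3a entry within 10 kb, 56 of 135 did (41.5%, 33.5 to 49.9%). From starts the shares were 45 of 134 (33.6%, 26.1 to 41.9%) and 53 of 128 (41.4%, 33.2 to 50.1%). The intervals of each pair overlap. Starts on chromosome 8 were not used here, which leaves out 6 of the 268. Of the 60, 44 lay within 250 bp of a start, or 16.8% of 262 (12.8 to 21.8%), and 33 of 345 shared peaks did so (9.57%, 6.89 to 13.1%). In the whole Nutlin-3a list the share was 77 of 607 (12.7%, 10.3 to 15.6%), whose interval overlaps that of the Nutlin-3a-only peaks. For standalone peaks it was 38 of 134 (28.4%, 21.4 to 36.5%). For shared peaks with no other Nutlin-3a entry within 10 kb it was 29 of 128 (22.7%, 16.3 to 30.6%), and those intervals overlap as well. The 60 peaks belonged to 55 genes, and 49 of them had no DMSO entry within 10 kb.

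Promoter peaks sat mostly just before the start. Among the 60, 41 summits were upstream and the median position was 87 bp before the start. For the 61 shared promoter peaks these values were 44 and 94 bp. Among 27 peaks of the DMSO list alone within 1 kb of a start, 12 were upstream and the median position was 90 bp after it. Only 8 of 125 DMSO-only peaks lay within 250 bp of a start (6.40%, 3.28 to 12.1%). The 60 promoter peaks had fold enrichments of 2.65 to 7.88 (median 4.67), and the 61 shared ones 3.38 to 29.95 (median 7.25).

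**Figure D3:**
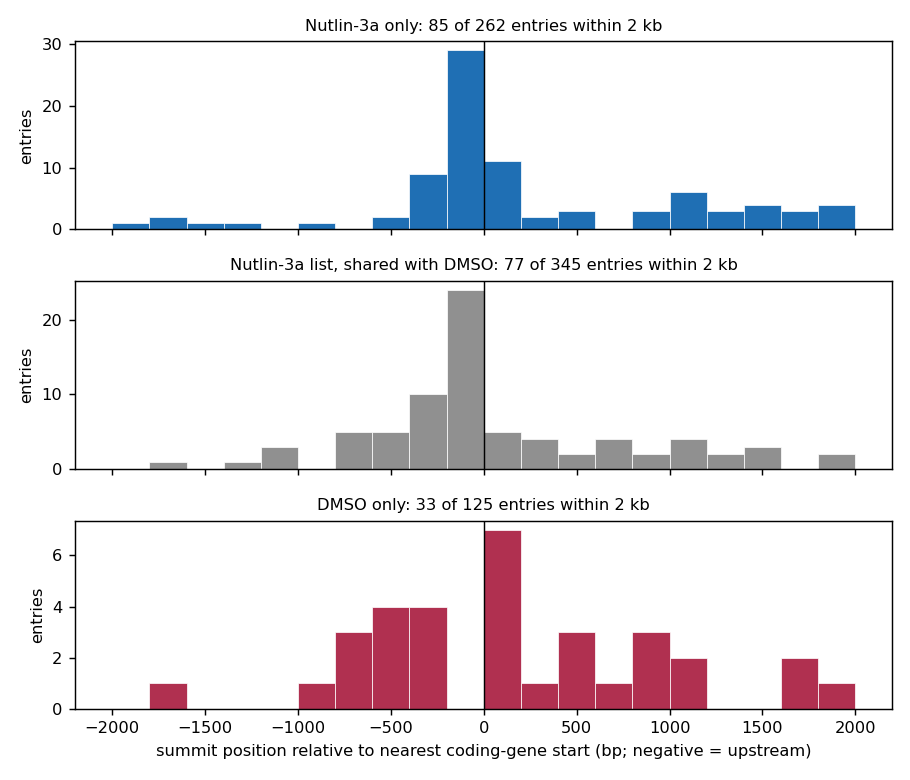
Position of summits relative to the nearest annotated coding-gene start (bp, negative upstream) in 200-bp bins, for Nutlin-3a-only (85 of 262 within 2 kb), shared (77 of 345) and DMSO-only peaks (33 of 125). The 2 upper panels have their tallest bar just upstream of the start, while the DMSO-only panel has no entry in that bar.

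The genes are described by lists, each compared with all 20033 protein-coding genes, of which 0.564% had a Nutlin-3a-only summit at most 5 kb from either end (0.568% when counted from annotated starts). The lists were written with earlier results of these data known. Of 18 genes recalled as RFX7 targets, 5 had such a peak: ABAT, ARL15, MXD4, REV3L and SLC43A2. The publications behind this list may rest on these libraries, so the count is not independent evidence. Counting from starts instead of gene ends added ATOSA, whose 2 peak summits lie 57745 and 30392 bp from the nearer end of the gene. Shared peaks lay within 5 kb of 11 of the 18, MXD4 among them, and of 119 of all 20033 protein-coding genes.

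The peak at ABAT, which encodes the enzyme that degrades the neurotransmitter GABA, covered chr16:8674335-8674772. It had 5.78-fold enrichment at a −log10 q of 21.1, and the summit lay 58 bp before the start, in the stretch with 2 CCAAT cores printed above. ARL15 encodes a small ARF-like GTPase, and its peak (chr5:54310408-54310900) was enriched 4.65-fold, at a −log10 q of 25.9. Its summit lay 146 bp after the start, outside the stretch printed above, and 204 bp from the nearest CCAAT core. SLC43A2 encodes an amino acid transporter. Its peak (chr17:1628881-1629148) lay 112 bp before a start and was enriched 4.54-fold, at a −log10 q of 12.2. These 3 peaks were standalone, and the nearest DMSO entry was 718820 bp away or farther.

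At REV3L, the catalytic subunit of the translesion DNA polymerase zeta, the peak (chr6:111483051-111483407) was weaker, enriched 2.84-fold at a −log10 q of 7.71. The REV3L summit lay 167 bp after the start and 148 bp from the arm printed above. ATOSA had 2 standalone peaks 27191 bp apart. The peak at chr15:52651982-52652189 was enriched 6.65-fold at a −log10 q of 14.6, and lay 30 bp before a start. The peak at chr15:52679381-52679533 had 4.03 and 8.99 and lay 35 bp before another start. The MXD4 peak, a 54-bp entry at chr4:2263000-2263053, differed from these in kind. It lay 370 bp from a DMSO entry and 148 bp from another Nutlin-3a entry, next to a site listed under both treatments.

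Cyclins, CDK inhibitors and the MYC network also had 5 genes with such a peak, of 24, with MXD4 counted in both lists. One of the 5 lies on chromosome 8 and is not described further. CDKN2D encodes p19, an inhibitor of the kinases CDK4 and CDK6. Its standalone peak (chr19:10569094-10569412) was enriched 5.57-fold at a −log10 q of 16.2, 184 bp before the start. MXI1, like MXD4, encodes a partner of MAX that opposes MYC. Its peak (chr10:110211239-110211471) had 6.81 and 26.7 and lay 1114 bp after a start, with no DMSO entry within 660179 bp. CDKN1B encodes the CDK inhibitor p27. Its peak (chr12:12717415-12717564) had 3.53 and 10.6 and lay 408 bp from a DMSO entry, beside a shared site.

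The other lists had few or none. Of 21 genes of the TOB and BTG family, the CCR4-NOT complex and decapping, DCP2 alone had a Nutlin-3a-only peak (chr5:112976446-112976887, fold enrichment 4.71, −log10 q 16.3, 142 bp before the start). Shared peaks lay at 5 others: CNOT1, PNRC1, PNRC2, TOB1 and TOB2. Of 28 regulators of PI3K, AKT and mTOR, PIK3R2, a regulatory subunit of PI3K, had one, beside a DMSO entry 318 bp away. A shared entry with 6.22-fold enrichment lay 164 bp from the PIK3R2 peak. Of 28 ciliary genes, IFT80 alone had such peaks, the 3 of the group at SMC4 described below. Of 25 direct p53 targets, TP53INP1 had one (fold enrichment 3.66, −log10 q 9.43), 189 bp from a DMSO entry. The TP53INP1 peak also lay 163 bp from a shared entry with 15.1-fold enrichment. The 11 RFX family and complex genes, 12 MHC class II genes, 25 apoptosis regulators and 28 autophagy and lysosome genes had none.

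Beyond the lists, the 25 peaks with the highest −log10 q among the 55 within 1 kb of a gene end were taken, and 24 of them are described by name. ABAT, ARL15, CDKN2D and DCP2 were among them. The highest, at PLCXD2 (chr3:111674468-111674836), had a −log10 q of 37.5 and a fold enrichment of 5.26, with its summit 10 bp from the gene end. DOLPP1, an enzyme of the dolichol cycle that feeds protein glycosylation, followed with 26.2 and 6.67. FAM111A, a protease that acts at replication forks, had a −log10 q of 24.96 and a fold enrichment of 6.01. At SOX4, a developmental HMG-box transcription factor, the values were 24.5 and 7.88, the highest fold enrichment of the 24. The SOX4 peak had a DMSO entry 347 bp away.

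Several of the 24 lay at genes of transcription and RNA processing. INTS3, a subunit of the Integrator complex, had a fold enrichment of 5.69. TRIM24, a ubiquitin ligase that acts on p53, had 5.93, and TFDP2, a dimerisation partner of E2F factors, had 4.33. PPRC1, a coactivator related to PGC-1, had 5.62. Protein turnover was represented by the deubiquitinase OTUD5 with 6.07. Signalling genes included GSK3B, a kinase that restrains WNT signalling, with 6.10, the phosphatase PTPN4 with 6.20, the lipid kinase PI4K2A with 5.18 and the calcineurin-binding CABIN1 with 4.36. The others were NICN1 (7.82), C12orf57 (6.24), EMC9 (5.93), COQ10A (5.64), ZFAND4 (5.23), CLIC4 (5.05) and SPTBN1 (3.64), each given by its fold enrichment. These are single genes near single peaks, and no group of them was tested.

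**Figure D4:**
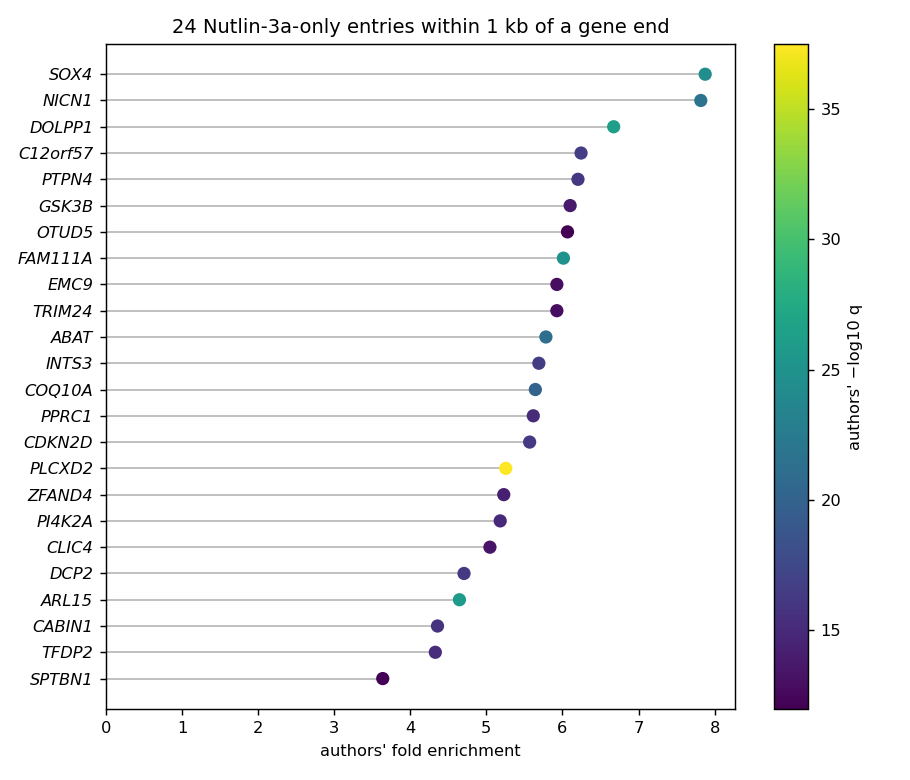
Authors' fold enrichment (x axis) of 24 of the 25 Nutlin-3a-only peaks with the highest −log10 q among those within 1 kb of a coding-gene end, coloured by −log10 q and named by that gene. Values run from 3.64 at SPTBN1 to 7.88 at SOX4, and PLCXD2 has the highest −log10 q, 37.5.

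Promoter windows of 300 bases, from 250 before to 50 after an annotated start, were searched for motifs on both strands. Taking the window of the nearest start for each of the 60 promoter peaks, 19 held the arm GTTGCC (31.7%, 21.3 to 44.2%), against 14 of 61 at shared peaks (22.95%) and 12.6% of all 22198 coding windows. The counts that follow instead use every window that a peak touches by 1 bp or more. The 268 peaks overlapped 53 such windows of 49 genes. The arm GTTGCC was found in 21 of 53 windows (39.6%, 27.6 to 53.1%), against 15 of 62 windows at shared peaks (24.2%, 15.2 to 36.2%), and the intervals overlap. Some windows overlap and hold the same site, as those of ZFAND4 do, while the intervals treat every window as separate. The longer form, GTTGCC followed directly by ATGG, was found in 3 windows, at COQ10A and at the head-to-head pair DCAF6 and MPC2, whose windows hold the same letters. It was present in 0 of 62 shared and 0.68% of all windows. Both arms with 0 to 3 bases between them (GTTNCC and GGNAAC) occurred in 1 window, that of CFAP184, and in 0.802% of all. Each match of the longer form is also counted as an arm.

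The CCAAT core was more common. It was found in 41 of 53 windows (77.4%, 64.5 to 86.5%), in 46 of 62 at shared peaks (74.2%, 62.1 to 83.4%) and in 34.7% of all windows. This motif was added after the data were seen. The windows of both sets of peaks were richer in G and C than all windows (medians 67.7% and 64.8% against 62.3%), and the part of base composition in these shares was not tested. DMSO-only peaks overlapped only 7 windows, with 0 X-box arms and 2 CCAAT cores, too few for a comparison.

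Counted by peak, 47 of the 268 overlapped a window, and 17 of these held an X-box arm and 37 a CCAAT core. Both were present at 13 and neither at 6. The core lay within the peak at 28 of the 37, and the arm at 10 of the 17. Over all 37 and all 17, inside the peak or not, the median distance to the summit was 33 bp for the core and 72 bp for the arm. At OTUD5 the arm was 20 bp and the core 4 bp from the summit, and at ABAT the nearer core was 5 bp away. Genes with an arm within the peak included CDKN2D, REV3L, DUSP6 (a phosphatase of ERK) and EMC9. At ATOSA, SCD (a fatty acid desaturase), PRDM10 and ATP6AP1 the window held an arm that lay outside the peak. The ATOSA arm begins 179 bases before the start, beyond the stretch printed above. A match of letters does not show that they are bound. Only the stated forms were searched, so a window counted as lacking an arm may still hold a variant of it.

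**Figure D5:**
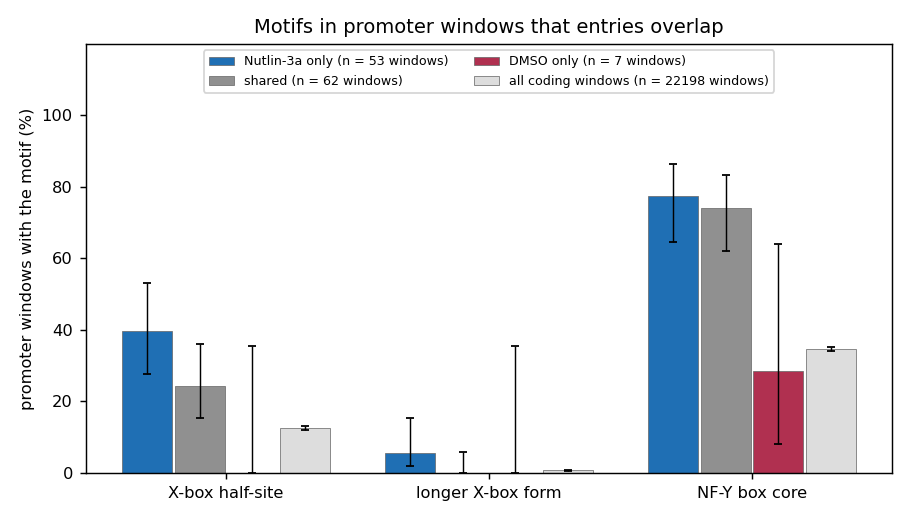
Percentage of 300-base promoter windows that hold each motif (bars; the half-site is the arm GTTGCC; with 95% Wilson intervals), for windows overlapped by Nutlin-3a-only, shared and DMSO-only peaks and for all coding windows. The CCAAT core of NF-Y reaches 77.4% and 74.2% at Nutlin-3a-only and shared peaks against 34.7% of all windows.

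Standalone peaks lay at a wide range of distances from gene ends. Of 137, 43 lay within 1 kb of a gene end, 27 between 1 and 10 kb, 29 between 10 and 100 kb, and 38 beyond. The highest fold enrichment among standalone peaks, 10.7, was inside ABCG1, a cholesterol exporter, 35102 bp from its nearer end (chr21:42234753-42235170, −log10 q 58.4). A peak 6848 bp before CYP11A1, the first enzyme of steroid synthesis, had the same rounded fold enrichment (chr15:74374383-74374673, −log10 q 45.1). Others lay 17389 bp from CCNE1, the cyclin E1 gene (chr19:29841571-29841952, 8.22), and inside MSI2, which encodes an RNA-binding protein of progenitor cells (chr17:57663037-57663299, 7.63). Narrow 50-bp peaks lay at CCDC86 (7.60) and inside IL20RB (7.59). The peaks at chr6:59202835-59203097 (10.1) and chr15:17009127-17009221 (8.53) were 1556011 and 3286520 bp from the nearest coding gene end. Both lie near the centromeres of their chromosomes, so such positions were not confined to the grouped peaks described next.

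Of the 122 grouped peaks, 81 were in stretches of 5 or more Nutlin-3a entries and 41 in stretches of 2 to 4, where entries up to 10 kb apart were joined. Those in the long stretches had a median fold enrichment of 2.22, a median −log10 q of 26.0 and a median distance of 507747 bp to a gene end. For those in the short stretches the medians were 3.61, 8.17 and 4228 bp. The stretch with most Nutlin-3a-only peaks, chr5:49601439-49646502, held 9 among 25 entries, all 9 with fold enrichments between 1.37 and 3.19. A stretch at chr4:49092359-49121172 held 8 of 11, and one at chr15:19776279-19789823 held 5 of 8. One at chr20:26600328-26606405 held 4 of 6, and so did one at chr4:49708183-49711888, while one at chr16:46386390-46401616 held 4 of 16. These 6 stretches lie near the centromeres of their chromosomes. A DMSO entry lay within 1 kb of 46 of the 81 peaks in long stretches.

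The HOXA9 stretch, which tied with the last 3 in number, differed from them in lying among genes. It held 4 Nutlin-3a-only peaks of 5 entries (chr7:27164041-27170705), with fold enrichments of 3.66 to 4.36, 1229 to 1924 bp from an end of HOXA9, a homeobox gene. Their gaps to the nearest DMSO entry were 64, 440, 793 and 1828 bp. At FAT1, an atypical cadherin, 3 peaks lay in a stretch with 2 shared entries, with fold enrichments of 4.70, 3.90 and 4.19 and gaps to DMSO entries of 70 to 235 bp. At NR2F2, an orphan nuclear receptor, 2 peaks (3.61 and 3.93) had DMSO entries 117 and 430 bp away. The peaks at these 3 genes thus lay beside DMSO entries.

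Among grouped peaks, 13 of 122 had no DMSO entry within 10 kb. At SMC4, a condensin subunit whose neighbour is IFT80, 3 peaks lay within 915 bp (chr3:160401069-160401983) with fold enrichments of 3.04, 3.21 and 6.0. The nearest DMSO entry was 25183878 bp away. DUSP6 and DCBLD2 had 2 peaks each. Those at DUSP6 had fold enrichments of 2.92 and 5.64, and those at DCBLD2 3.60 and 3.78. The other 6 of the 13 lay farther from coding genes or had lower fold enrichment. A pair was 61593 and 62647 bp from FRG2B (2.34 and 1.91), and a pair on chromosome 18 was 4680 and 5386 bp from LOC124905450 (1.37 and 1.56). Single peaks were 30301 bp from CWH43 (2.82) and 296848 bp from SPATA31A5 (3.70).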

How the data were processed

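RFX7 ChIP-seq and input libraries of HCT116 cells, 2 each per treatment, were grouped by title. The submitters' processing notes name MACS2 2.2.7.1 among other tools and the build hg38. The aligner and whether replicates were pooled are not given in the sources used here. The authors deposited 1 narrowPeak list per treatment. It holds peak positions, the fold enrichment (a ratio) per peak, −log10 q per peak and a score, as deposited. The smallest −log10 q was 1.36 (Nutlin-3a) and 1.31 (DMSO).

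Overlap was computed in Python 3.11.15 and checked with bedtools 2.31.1 (268 entries without overlap by both). Starts are 1-based. Distances were measured between summits and RefSeq protein-coding gene ends, the nearer one counting (GRCh38.p14, 20033 genes) or to annotated starts (22198 windows of 15842 genes). The motif search was tested on simulated sequences, and the overlap search on a few intervals written by hand. No test across peaks was run. Members and gene lists were chosen with earlier results of these data known. Named peaks were: the 25 with the highest −log10 q within 1 kb of a gene end, the 10 with the highest fold enrichment and no other Nutlin-3a entry within 10 kb, those within 5 kb of list genes, the 5 stretches with most members (and 2 tied with the last), the 3 on each side of the overlap threshold, and the extremes of fold enrichment, −log10 q and width. One of the 25 is not reported here. FAT1, NR2F2 and the grouped peaks without a DMSO entry nearby were named after their values were seen. Peaks on chromosome 8 other than that at TP53INP1 are not described singly here. Alternatives varied the overlap rule, thresholds, distances and motif.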

Additional observations from a re-analysis of the deposited data

How the results depend on the processing

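No paired analysis was possible because the files hold no values of single replicates, which also means that none could be left out in turn. The search for X-box arms around summits outside promoter windows was not run because it needs genome sequence. Of 31 alternative values, 18 stayed near the value given in the results, meaning within 1.5 times for a number of peaks and within its 95% interval otherwise. The number of Nutlin-3a-only peaks was 341 where shared meant 50% of each peak, and 199 with gaps of up to 1 kb counted as shared. It was 138 with only the Nutlin-3a list held to −log10 q of at least 10, 185 with both lists held to it, and 146 without grouped peaks, settings that leave out peaks. The percentage within 1 kb of a gene end became 37.7 at 5 kb, 42.5 at 10 kb, 30.8 without grouped peaks and 31.4 for standalone peaks. The percentage with another Nutlin-3a entry nearby was 31.7 at 1 kb. The median fold enrichment was 4.43 without grouped peaks and 4.54 for standalone peaks, and the median width 173.5 and 172 bp. Of the 60 nearest start windows within 1 kb, 5% held a longer X-box form and 66.7% a CCAAT core, where 31.7% held the arm GTTGCC. The standalone setting and CCAAT were chosen after seeing the data. Without counts of reads, whether a peak missing from the DMSO list lay just under its threshold could not be seen.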
